A study of Mus musculus with 2 samples.

Results

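The genes described here encode phase II conjugating enzymes and carboxylesterases, taken by symbol as every row of the expression tables that starts with Ugt1a, Ugt2a, Ugt2b, Sult, Gsta, Gstm, Gstp, Gstt, Gsto, Gstk, Mgst or Ces followed by a digit. The rule found 79 of 24357 named genes, and it uses symbols and no measured value. They fall into 8 UGT1A genes, 10 UGT2 genes, 19 sulfotransferases (SULT), 20 cytosolic and mitochondrial glutathione S-transferases (GST), 3 microsomal glutathione S-transferases (MGST) and 19 carboxylesterases (CES). Messenger RNA was sequenced in ileal epithelial cells of wildtype C57BL/6 mice, a common inbred laboratory strain. The cells were freed from the ileum, the last stretch of the small intestine, with EDTA and were sorted by flow cytometry. The sort kept live cells that carried the epithelial surface protein EpCAM and lacked CD45, a surface protein of leukocytes. The 2 libraries form 1 group with no stated treatment and no second genotype and are called replicate 1 and replicate 2 in accession order. The age of the animals was not stated in the sources used, and the titles carry a code and numbers whose meaning is not given.

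Phase II enzymes attach a water-soluble group to drugs, plant compounds, hormones and bile pigments, so that the product can be pumped out of the cell. UDP-glucuronosyltransferases (UGTs) add glucuronic acid inside the endoplasmic reticulum, sulfotransferases add a sulfate group taken from the donor PAPS in the cytosol, and glutathione S-transferases add the tripeptide glutathione. Carboxylesterases split esters and amides and thereby activate or inactivate many drugs. The liver is the best known site of all these reactions, and the absorptive enterocyte meets swallowed compounds before the liver does.

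Levels are FPKM, fragment numbers divided by the length of the transcript and by the depth of the library, a unit that allows genes to be set beside each other per length. The smallest steps in the values placed the depth at about 1.62e+07 fragments in replicate 1 and 2.62e+07 in replicate 2. The X-inactivation RNA Xist stood at 7.91 and 0.0064 FPKM in replicates 1 and 2, and Eif2s3y, a Y-linked gene, at 0 and 14.9 FPKM, so the libraries differ in sex, and sex, animal and depth cannot be told apart. All 7 epithelial identity markers and all 11 enterocyte markers had at least 1 FPKM in both libraries. Of 9 leukocyte markers only Lyz2 did, at 5.87 and 7.08 FPKM, and Ptprc, which encodes CD45, stood at 0.866 and 0.436 FPKM. None of 8 stroma and vessel markers reached 1 FPKM in both libraries, and Pdgfra and Kdr were listed at 0 in both. Of 6 hepatocyte markers 3 did, and all 6 summed to 17.8 and 15.7 FPKM, while albumin (Alb) was listed at 0 in replicate 1 and stood at 0.101 FPKM in replicate 2.

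The ileal epithelium carried a few enzymes of each family at a high level and many others near 0. Of the 79 genes, 39 (49.4%) had at least 1 FPKM in both libraries and are called expressed here, against 42.3% of all named genes. A mean of 100 FPKM or more was reached by 11 (13.9%), against 3.16% of all named genes. At the other end, 14 (17.7%) were listed at 0 in both libraries, against 31.8% of all named genes. The 79 genes together summed to 3358 FPKM in replicate 1 and 3404 FPKM in replicate 2, or 0.556% and 0.550% of all FPKM. Just 3 genes, Mgst3, Ces2e and Gsto1, held 39.8% and 41.0% of that sum, and the 10 highest held 76.9% and 75.8%.

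**Figure D1:**
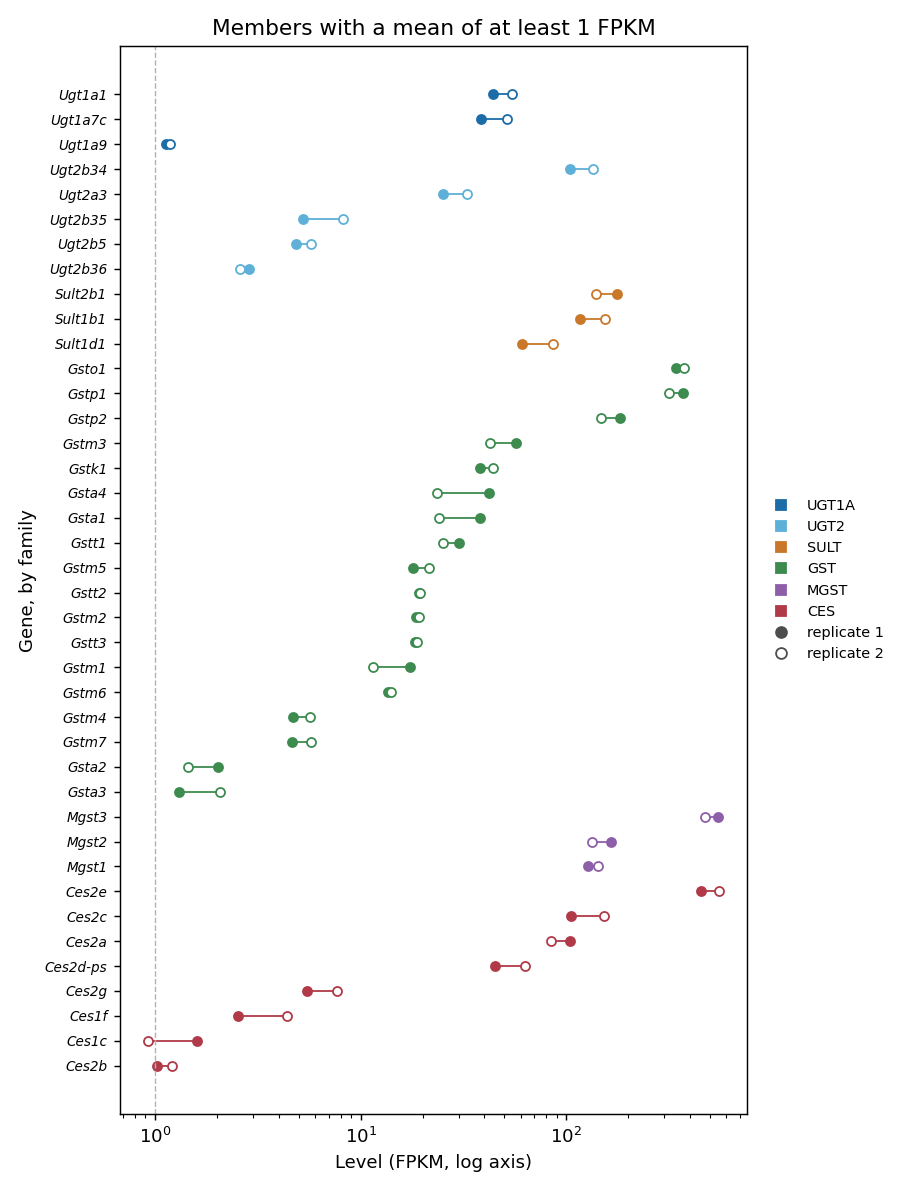
Level in FPKM on a log axis of the 40 enzyme genes whose mean reached 1 FPKM, ordered by family, with replicate 1 as filled and replicate 2 as open circles and a dashed line at 1 FPKM. Mgst3 and Ces2e lie furthest to the right, near 500 FPKM, and Ugt1a9, Ces1c and Ces2b lie furthest to the left, near the dashed line.

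By summed FPKM the glutathione S-transferases led with 34.5% ± 2.49 of the total (SD, n = 2). Carboxylesterases held 23.5% ± 2.87 and microsomal glutathione S-transferases 23.4% ± 2.09, and the order of these families differed between the libraries. Sulfotransferases held 10.9% ± 0.412, UGT2 genes 4.84% ± 0.816 and UGT1A genes 2.85% ± 0.476. Near-identical genes bear on these shares. Without the members that share most of their 50-base words with another gene, the order changed, and microsomal glutathione S-transferases led with 29.0%. Carboxylesterases then held 27.0%, glutathione S-transferases 22.9% and UGT1A genes 1.64%.

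**Figure D2:**
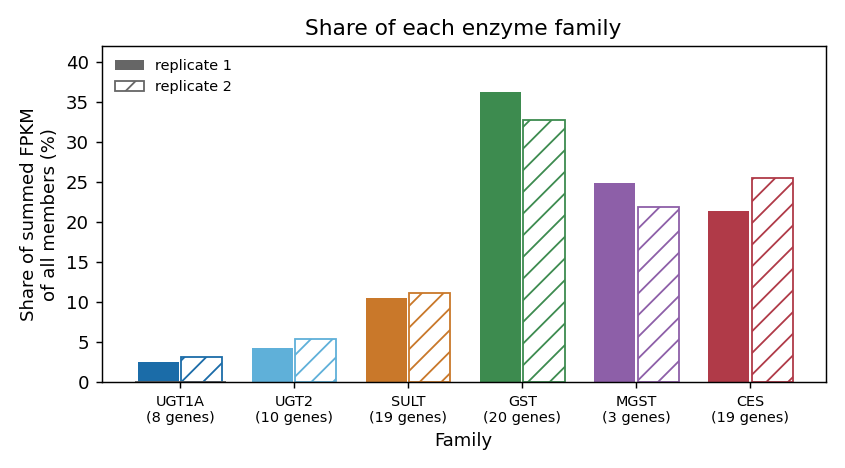
Share of the summed FPKM of all 79 genes held by each family, in percent, with replicate 1 as filled and replicate 2 as hatched bars. The glutathione S-transferases stand highest in both libraries, and carboxylesterases pass microsomal glutathione S-transferases in replicate 2 only.

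Most UGT1A RNA was assigned to a pair of genes. Ugt1a1, the enzyme that conjugates bilirubin, had 43.8 and 54.3 FPKM in replicates 1 and 2. Ugt1a7c had 38.4 and 51.6 FPKM, a range that overlaps that of Ugt1a1. Together they held 97.4% and 97.6% of the family's summed FPKM. Ugt1a9 was just past the minimum with 1.13 and 1.19 FPKM. Ugt1a6b led the genes below it at 0.573 and 0.512 FPKM, and Ugt1a6a, Ugt1a10, Ugt1a2 and Ugt1a5 stood lower in mean level. Among these 8 genes, the neighbours of Ugt1a7c on the chromosome, Ugt1a9 and Ugt1a6b, were thus far below it in FPKM. No level was listed for Ugt1a8, another gene of the family.

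These 8 genes are alternative first exons of a cluster on chromosome 1 (chr1:88055388-88220002, plus strand, mm10), and their shared exons bear on how their levels were told apart. In the GENCODE annotation the main coding transcript of each gene has its own first exon joined to a common second exon. The 735 coding bases after the first exon were the same in all 8. The junctions of the highest 3 genes and of Ugt1a2, at 0.0363 and 0.0385 FPKM, are shown 5′ to 3′ because only the lower-case side differs between them. Lower case gives the last 24 bases of the first exon, and capitals give the first 24 bases of the common second exon.
Ugt1a1: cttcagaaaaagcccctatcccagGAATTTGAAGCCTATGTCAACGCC
Ugt1a7c: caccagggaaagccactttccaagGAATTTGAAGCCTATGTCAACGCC
Ugt1a9: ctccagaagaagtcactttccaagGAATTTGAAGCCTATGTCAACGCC
Ugt1a2: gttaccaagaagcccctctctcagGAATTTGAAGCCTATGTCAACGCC
The common exon starts at base 88215044 of chromosome 1. A fragment that lies wholly within the common exons cannot be assigned to a gene by its sequence. For Ugt1a1, 80.2% of its 50-base words occurred in another gene, for Ugt1a7c 40.9% and for Ugt1a6a 100%. All words of Ugt1a6a, its first exon included, occurred in transcripts annotated to Ugt1a7c. The level of Ugt1a6a, 0.335 and 0.642 FPKM, is therefore uncertain. Levels within this cluster depend on how the authors' software divided fragments of shared sequence.

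Among the UGT2 genes, 5 of 10 were expressed. Ugt2b34 had 104 and 134 FPKM, and Ugt2a3, whose human counterpart conjugates bile acids, had 25.1 and 32.8 FPKM. This pair held 90.4% and 90.6% of the UGT2 sum. Ugt2b35 followed with 5.27 and 8.24 FPKM, Ugt2b5 with 4.86 and 5.76 FPKM and Ugt2b36 with 2.86 and 2.58 FPKM. Below the minimum, Ugt2b38 was highest at 0.677 and 0.698 FPKM. Ugt2b38 and Ugt2b5 are 97.0% identical in coding sequence and shared 34.1% of the words of Ugt2b38, so the low value of Ugt2b38 is uncertain, whereas Ugt2b34 shared only 2.07% of its words with any other gene.

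Of the sulfotransferases, 3 of 19 were expressed, the smallest share of the 6 families. Sult2b1, which sulfates cholesterol and other hydroxysteroids, had 177 and 139 FPKM. Sult1b1, which acts on thyroid hormones and small phenols, had 116 and 154 FPKM, and its range overlapped that of Sult2b1. Sult1d1, which in mice sulfates catecholamines, had 60.6 and 85.9 FPKM and lay below both in each library. These 3 genes held 99.6% and 99.7% of the family's summed FPKM.

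The remaining sulfotransferases were low or not seen. Sult1c2 came closest to the minimum with 0.991 and 0.819 FPKM, and Sult1a1, a general phenol sulfotransferase, had 0.203 and 0.190 FPKM. Sult1e1, which sulfates oestrogens, lies beside Sult1d1 on chromosome 5 and had 0.0559 and 0 FPKM. In all, 11 were listed at 0 in both libraries, among them all 8 genes of the Sult2a cluster, whose liver forms sulfate bile acids and steroids. At the depths read from the tables, 3 fragments of a Sult2a gene would give between 0.0933 and 0.319 FPKM in replicate 1 and between 0.0577 and 0.197 FPKM in replicate 2. A listing at 0 therefore allows levels up to about these values, which cover counting error only.

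The glutathione S-transferases were the most widely expressed of the larger families, with 18 of 20 genes at 1 FPKM or more in both libraries. Gsto1, an omega-class enzyme that reduces dehydroascorbate and methylated arsenic, had 343 and 373 FPKM. Gstp1 had 371 and 317 FPKM and Gstp2 182 and 147 FPKM, and both belong to the pi class, which conjugates electrophilic compounds. Gsto1 and Gstp1 overlapped in level, and Gstp2 lay below both in each library. These 3 genes held 73.5% and 75.0% of the summed FPKM of the family.

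Gstp1 and Gstp2 lie next to each other on the minus strand of chromosome 19 and are 98.1% identical over 630 coding bases, with 12 differences. Coding bases 271 to 330, at chr19:4036694-4036753 for Gstp1 and chr19:4040988-4041047 for Gstp2 (mm10), hold 5 of the 12 and are shown 5′ to 3′ because only such letters tell the transcripts apart. Capitals mark the bases that differ.
Gstp1: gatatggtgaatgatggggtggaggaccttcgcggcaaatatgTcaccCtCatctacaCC
Gstp2: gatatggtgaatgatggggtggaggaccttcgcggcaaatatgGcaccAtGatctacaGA
Gstp1 shared 62.3% of its words with Gstp2. The ratio of Gstp1 to Gstp2 in FPKM was 2.04 in replicate 1 and 2.16 in replicate 2, and it rests on fragments that cover a difference.

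The mu, alpha, theta and kappa classes stood a step lower. Of the mu class, which conjugates epoxides and other electrophiles, all 7 genes were expressed. Gstm3 led it with 56.8 and 42.6 FPKM, and Gstm7 had the lowest mean with 4.62 and 5.74 FPKM. Gstk1, found in mitochondria and peroxisomes, had 38.0 and 44.0 FPKM. The theta genes Gstt1, Gstt2 and Gstt3 lay between 18.4 and 30.1 FPKM in both libraries, while Gstt4 was listed at 0 in replicate 1 and at 0.0478 FPKM in replicate 2.

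Alpha-class enzymes act on products of lipid peroxidation, and Gsta4 in particular on hydroxynonenal. Gsta4 had 42.1 and 23.5 FPKM, and Gsta1 had 38.2 and 23.9 FPKM, so both were higher in replicate 1 and their ranges overlap. Gsta2 had 2.03 and 1.45 FPKM, although its coding sequence is 97.6% identical to that of Gsta1. Gsta1 shared 89.7% of its words with other genes, chiefly the predicted gene Gm3776, and its level is therefore uncertain, while Gsta4 shared none. The second omega gene, Gsto2, was the highest glutathione S-transferase below the minimum with 0.224 and 0.20 FPKM, against 343 and 373 FPKM for Gsto1.

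The 3 microsomal glutathione S-transferases are membrane proteins unrelated in structure to the cytosolic enzymes. Mgst3 had 544 and 471 FPKM and ranked 198 from the top among all named genes in mean level, the highest rank of the 79. Mgst2, which can also make leukotriene C4, had 164 and 133 FPKM, and Mgst1, a detoxifying enzyme of the endoplasmic reticulum and outer mitochondrial membrane, had 128 and 142 FPKM. Mgst3 lay above the others in both libraries, and Mgst2 and Mgst1 overlapped. None of the 3 shared a 50-base word with another gene.

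Carboxylesterase RNA came from the Ces2 genes, which in mammals are the intestinal type, and hardly from the Ces1 genes, the main type of liver and plasma. The 8 Ces2 genes held 99.2% and 99.1% of the summed FPKM of the carboxylesterases, and the 7 Ces1 genes 0.767% and 0.851%. Ces2e had 451 and 551 FPKM, ranked 201 from the top among all named genes and held 62.7% and 63.5% of the family's sum. Ces2c had 106 and 152 FPKM and Ces2a 104 and 84.6 FPKM. Of the 50-base words of Ces2c, 42.2% occurred in other genes, 38.2% in Ces2d-ps, so its level depends on how shared fragments were divided. For Ces2a 22.2% of words were shared. Ces2e lay above Ces2c and Ces2a in both libraries, and Ces2c lay above Ces2a by less than the limit for a separated pair given further on.

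The other carboxylesterases covered a wide range of FPKM. Ces2d-ps had 45.2 and 63.2 FPKM. It is annotated as an unprocessed pseudogene, and 76.9% of its words occurred in other genes, 53.0% in the predicted gene Gm8798, so this value is uncertain. Ces2g had 5.48 and 7.68 FPKM and Ces2b 1.02 and 1.21 FPKM, while Ces2f, between Ces2e and Ces2g on the chromosome, had 0.0742 and 0.103 FPKM.

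Of the Ces1 genes only Ces1f was expressed, at 2.53 and 4.38 FPKM. Ces1c, which in mice is secreted into plasma, had 1.60 and 0.931 FPKM. Ces1e had 0.646 and 1.35 FPKM, so these genes crossed the minimum in opposite libraries. Ces1a, Ces4a and Ces5a were listed at 0 in both libraries.

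The families differed in how evenly their clusters were used. In the UGT2 cluster, which also holds 3 Sult1 genes within 702 kb of chromosome 5 (chr5:86889767-87591594), 7 of 13 genes were expressed, and genes near 0 lay between them. In the Ces1 and Ces5 cluster (chr8:93020214-93535830) 1 of 8 genes was expressed, and in the Ces2 to Ces4 cluster of the same chromosome (chr8:104734003-105150109) 6 of 11 were. All 7 Gstm genes on chromosome 3 (chr3:107895821-108044894) were expressed, and none of the 8 Sult2a genes on chromosome 7 (chr7:13623967-14494230). Coordinates are those of mm10.

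**Figure D3:**
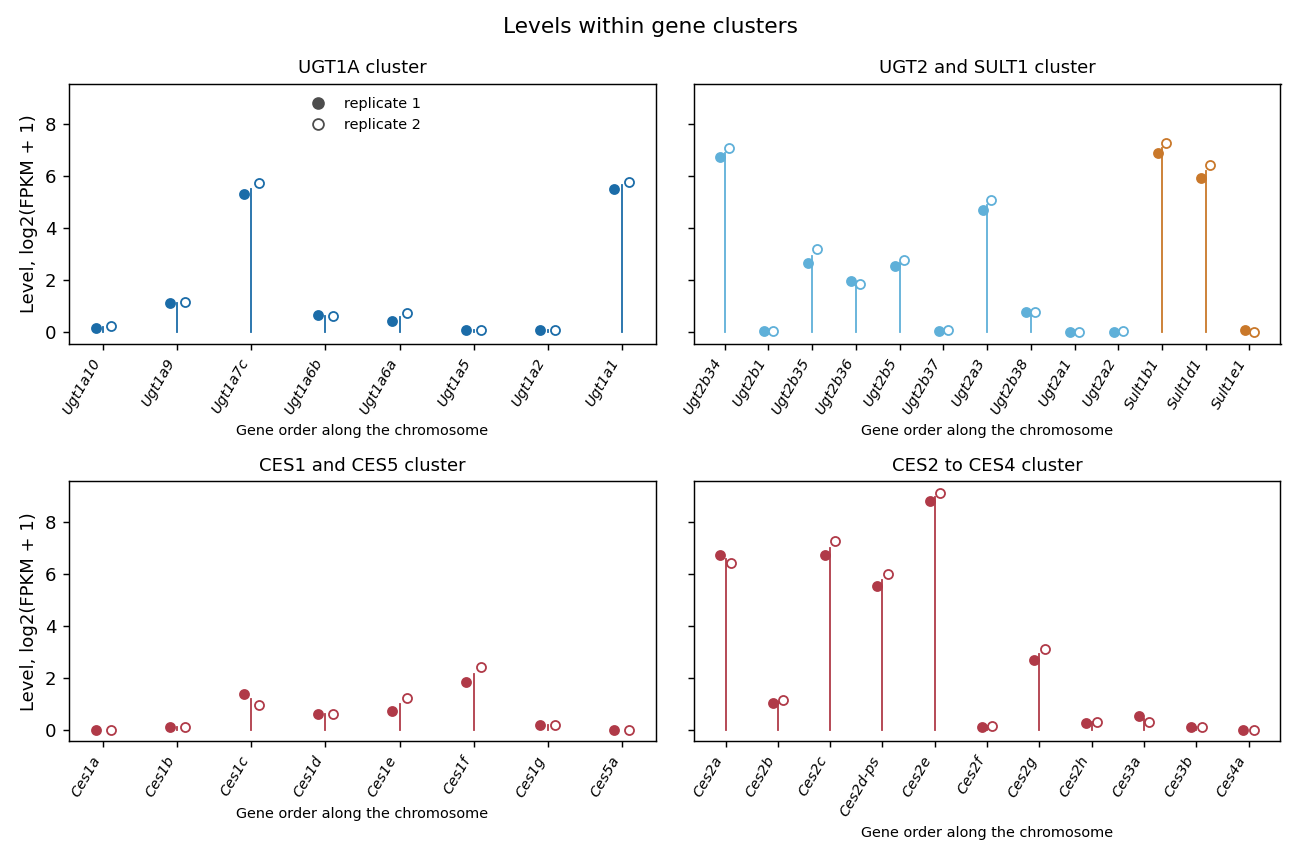
Level as log2(FPKM + 1) of the genes in 4 clusters in their order along the chromosome, with replicate 1 as filled and replicate 2 as open circles and a line up to the mean. Ugt1a7c and Ugt1a1 stand out in the UGT1A cluster, Ces2e is highest in its cluster, and no gene of the Ces1 and Ces5 cluster is above 2.5 on this scale.

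The order within a family was clear for part of the neighbouring genes. A pair of neighbours in mean level counts as separated if its values did not overlap, if the libraries ranked it alike, and if the step in log2(FPKM + 1) was larger than a limit. The limit is the 95th percentile of the absolute difference of replicates 1 and 2 in the 200 genes closest in level. Of 34 neighbouring pairs with means of at least 1 FPKM, 15 were separated and 15 overlapped. The carboxylesterases were separated in 5 of 7 pairs, the UGT2 genes in 3 of 4 and the glutathione S-transferases in 4 of 17. Ugt2b34 lay above Ugt2a3 by 2.01 on the log2 scale against a limit of 0.60, Mgst3 above Mgst2 by 1.77 against 0.79, Ugt1a7c above Ugt1a9 by 4.40 against 0.68, and Gstp1 above Gstp2 by 1.07 against 0.79. With the 99th percentile in place of the 95th, 8 pairs were separated.

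Shared sequence limits the certainty of some of the highest values. Of the 79 genes, 15 shared more than 50% of their 50-base words with another gene, and 7 of these were expressed. They were Gsta1, Gsta2, Gstp1, Gstp2, Ugt1a1, Ugt1a9 and Ces2d-ps. At the other end 22 genes shared no word, among them Mgst3, Gsto1, Mgst1, Mgst2, Sult1b1 and Sult1d1, and Ces2e shared 3.36%. The read length of the libraries was not stated, so sharing at this word length is a guide only.

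**Figure D4:**
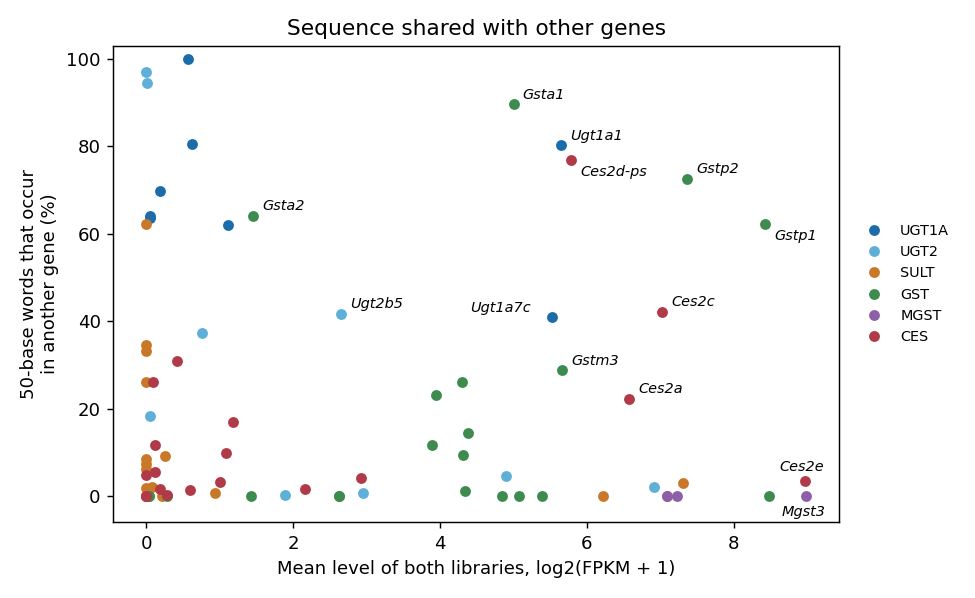
Percent of the 50-base words of each of the 79 genes that occur in another gene, against the mean level as log2(FPKM + 1), coloured by family. Mgst3, Ces2e and Gsto1 are high in level and near 0 in shared sequence, while Gstp1, Gstp2, Ugt1a1, Ces2d-ps and Gsta1 are high in both.

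By the median absolute difference in log2(FPKM + 1), the enzymes differed more between the libraries than genes in general, but not at the upper end. The median was 0.30 for the enzyme genes and 0.22 for all genes, each with a mean of at least 1 FPKM. At the 95th percentile the enzymes stood lower, at 0.61 against 0.65. The sets were not matched for level, and this scale shrinks the differences of low genes. Large differences were rare in both sets. Of the 40 enzyme genes whose mean reached 1 FPKM, 0 were higher and 0 were lower in replicate 2 by more than 1 in log2(FPKM + 1), against 0.566% and 0.962% of 10601 genes with such a mean. With a smaller difference of more than 0.5, chosen after the data were seen, 3 were higher, against 6.78% of all genes, and 3 were lower, against 4.74%. In replicate 2, 26 of the 40 (65%) were higher by any amount, against 64% of all genes. The median difference, replicate 2 minus replicate 1, was 0.13 for these genes and 0.11 for all genes. Relative to that overall shift, 21 of the 40 lay above it.

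By family, the median difference in log2(FPKM + 1) was 0.30 for UGT1A, 0.36 for UGT2, 0.40 for sulfotransferases and 0.35 for carboxylesterases. It was 0.01 for glutathione S-transferases and -0.21 for microsomal ones. The values of UGT1A, sulfotransferases and microsomal enzymes rest on 3 genes each, and Sult2b1 at -0.35 went against the rest of its family. Above the overall median lay 2 of 3 UGT1A genes, 4 of 5 UGT2 genes, 2 of 3 sulfotransferases, 6 of 18 glutathione S-transferases, 1 of 3 microsomal ones and 6 of 8 carboxylesterases. The difference between families was not tested. Differences also followed GC content, and their median was 0.28 in the quintile lowest in GC content and -0.15 in the highest quintile. With that trend and transcript length removed, the medians were 0.18 for UGT1A, 0.20 for UGT2, 0.25 for sulfotransferases, 0.26 for carboxylesterases, -0.01 for glutathione S-transferases and -0.18 for microsomal ones, on a scale where all genes had 0.11.

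**Figure D5:**
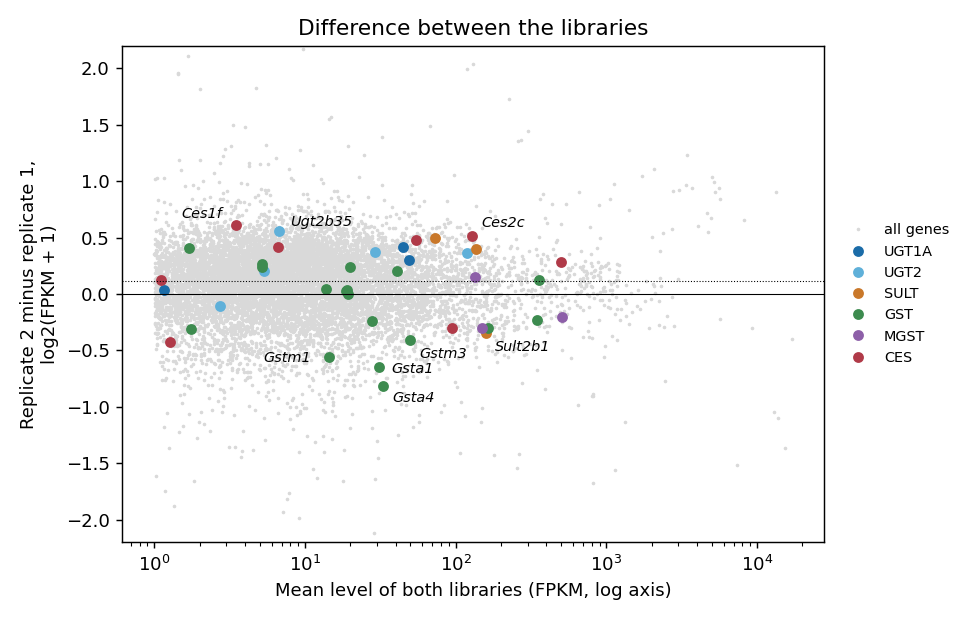
Difference between the libraries, replicate 2 minus replicate 1 in log2(FPKM + 1), against mean FPKM on a log axis for all genes whose mean reached 1 FPKM (grey) and for the 40 enzyme genes (coloured by family), with a dotted line at the overall median of 0.11. Gsta4, Gsta1 and Gstm1 lie lowest among the enzyme genes and Ces1f highest, and 31 genes lie outside the axis.

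The 5 largest differences towards replicate 1 included 2 alpha and 2 mu glutathione S-transferases. By class, 3 of 4 alpha genes were lower in replicate 2, with Gsta3 at 0.41. Of the 7 mu genes 5 were higher, near the 64% of all genes, and 3 lay above the overall median. Gsta4 stood at -0.81 against a limit of 0.57, the 95th percentile for genes of like level. Gsta1 followed with -0.65 against 0.62, and then Gstm1 with -0.56, Ces1c with -0.43 and Gstm3 with -0.41, the last 3 within their limits. In the other direction stood Ces1f with 0.61, Ugt2b35 with 0.56, Ces2c with 0.52, Sult1d1 with 0.50 and Ces2d-ps with 0.48. Of these only Ugt2b35 reached its limit, which was also 0.56 to 2 decimals. In all, 3 of the 40 (7.5%) were past their limit, against 5.55% of all genes. With the trend removed, Gsta4 stood at -0.87, Gsta1 at -0.72 and Ugt2b35 at 0.35.

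Cell type markers also differed between the libraries, read beside the 64% of all genes that were higher in replicate 2. All 7 epithelial identity markers were lower in replicate 2, with a median of -0.27. All 8 goblet cell markers were lower in replicate 2, with a median of -1.02 and summed levels of 43380.4 and 21740.4 FPKM. All 6 Paneth cell markers were higher, with a median of 0.82 and summed levels of 16241 and 30419 FPKM. Of the 11 enterocyte markers, 9 were higher, with a median of 0.31 and summed levels of 41014 and 43056 FPKM. Stem cell markers were higher in 4 of 4 and proliferation markers in 6 of 6, while tuft cell markers with a mean of 1 FPKM or more were lower in 4 of 4 and enteroendocrine markers in 5 of 6. Of 5 ileum markers 4 were lower, with a median of -0.25, and among them the bile acid binding protein Fabp6 had 1247 and 390 FPKM. In bulk RNA, fewer cells of a type and less RNA per cell cannot be told apart. The part of cell makeup, sex and GC content in the differences of Gsta4, Gsta1 and Ugt2b35 was not tested.

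Most genes listed for the supply of the conjugating enzymes were expressed, read beside 42.3% of all named genes. All 5 genes listed for the supply of UDP-glucuronic acid and the cleavage of glucuronides were. The endoplasmic reticulum nucleotide carrier Slc35b1 had 90.0 and 90.4 FPKM, and Ugdh, which makes UDP-glucuronic acid, had 48.5 and 60.6 FPKM. The other carrier on this list, Slc35d1, was the lowest of the 5 with 6.07 and 6.95 FPKM. For PAPS and sulfate, 9 of 11 listed symbols were in the tables and 8 of these were expressed. Bpnt1, which breaks down the spent donor, had 117 and 147 FPKM, and the donor synthases Papss1 and Papss2 had 44.9 and 55.0 FPKM and 22.2 and 30.4 FPKM. For glutathione, 10 of 12 were expressed, led by the surface peptidases that break down glutathione and its conjugates. Anpep had 1324 and 1127 FPKM, Ggt1 277 and 255 FPKM, and Dpep1 213 and 185 FPKM. The genes for glutathione synthesis were lower, with Gss at 47.9 and 53.3 FPKM, Gclm at 30.4 and 37.0 FPKM and Gclc at 5.48 and 7.75 FPKM. Slc7a11 stayed below the minimum with 0.182 and 0.163 FPKM. Transporters that export conjugates or bile acids were expressed in 7 of 10, with Slc51a at 231 and 181 FPKM and Abcg2 at 52.4 and 50.01 FPKM.

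Outside these families, 6 of 16 other conjugating enzymes were expressed, against 42.3% of all named genes. Listed at 0 in both libraries were 5 of the 16, against 31.8% of all named genes. Gstz1, a zeta-class enzyme of tyrosine breakdown, had 23.5 and 30.1 FPKM, and the acetyltransferase Nat2 had 20.7 and 22.3 FPKM while Nat1 was listed at 0. Other ester and epoxide hydrolases were expressed in 10 of 12. The epoxide hydrolase Ephx2 had 140 and 227 FPKM, and the esterase Aadac 34.3 and 68.0 FPKM. Both were higher in replicate 2, as were 7 of 10 genes of this list, 6 of 8 carboxylesterases and 64% of all genes. Lipe was lower there, with 36.1 and 27.4 FPKM. All 23 listed regulators were expressed, though Ahr, the lowest, only just passed the minimum with 1.001 and 1.56 FPKM. Hnf4a had 132 and 136 FPKM, the antioxidant factor NRF2 (Nfe2l2) 52.8 and 71.5 FPKM, and the xenobiotic receptor Nr1i2 32.9 and 32.2 FPKM. Of 8 NRF2 target genes outside the families, 6 were expressed, with Srxn1 at 68.7 and 73.4 FPKM and Txnrd1 at 54.2 and 76.9 FPKM. This list overlaps that for glutathione supply, since Gclc, Gclm, Slc7a11 and G6pdx are in both.

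These lists also differed between the libraries, read beside the 64% of all genes that were higher in replicate 2. In log2(FPKM + 1), Aadac at 0.97 and Ephx2 at 0.70 rose more than any of the enzyme genes, of which Ces1f was highest at 0.61. Among genes whose mean reached 1 FPKM, all 5 for UDP-glucuronic acid and glucuronides and all 6 other conjugating enzymes were higher in replicate 2. So were 6 of 8 for PAPS and sulfate, 7 of 10 other hydrolases, 5 of 6 NRF2 targets, 5 of 8 efflux transporters and 12 of 23 regulators. For glutathione supply it was 4 of 10, and their median in log2(FPKM + 1) was -0.03, beside 0.01 for the glutathione S-transferases.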

How the data were processed

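Messenger RNA was sequenced in 2 libraries of 1 group. The deposited values are FPKM, made by the authors, per the submitters' processing notes, with TopHat2 2.0.14, Cufflinks 2.2.1 and mm10. The sources used do not give the annotation, the read length, the strand setting or how fragments with several matches were treated. Of 24384 rows, 27 held a date instead of a symbol and were dropped.

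FPKM are not counts, and there is no contrast, so no test was run. Differences were taken in log2(FPKM + 1), which shrinks those of low genes. The labels do not say how many animals each library came from, and the spread given is that between the libraries. Depth was taken from the smallest FPKM steps, with 160 bases subtracted from each transcript length. Only 64.0% and 60.8% of low values lay within 0.05 of a whole fragment, so depths are approximate and whole counts were not recovered.

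Coordinates, coding sequences and 50-base words came from GENCODE M21, in which all 79 symbols were found. To remove the trend with GC content and length, genes were divided into 10 by 10 bins and each bin's median difference was subtracted, with the overall median added back. Genes were named by level and by difference between libraries: the 3 highest of each family, the 5 largest differences each way and the highest gene below 1 FPKM of each family, and any other member by choice. Members and lists were chosen with earlier results of these data known. Some results are not reported here. The steps were tested on simulated data. Software was Python 3.11.15, using pandas 2.3.3 for tables, numpy 2.4.6 for arithmetic and matplotlib 3.10.9 for plots.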

Additional observations from a re-analysis of the deposited data

How the results depend on the processing

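No paired analysis was possible because there was 1 group. The count of expressed genes was 39, and it was 45 with a minimum of 0.5 FPKM, 30 with 5 FPKM, 38 without pseudogenes and 40 by the mean of both libraries. With either library left out it was 40, and the count listed at 0 was 15 to 17. Leaving out a library gave shares of 2.51% to 3.19% for UGT1A, 4.27% to 5.42% for UGT2, 10.6% to 11.2% for sulfotransferases, 32.8% to 36.3% for glutathione S-transferases, 21.9% to 24.9% for microsomal ones and 21.4% to 25.5% for carboxylesterases. Without members that share most of their 50-base words, the shares were 1.64%, 5.98%, 13.5%, 22.9%, 29.0% and 27.0% in that order, since the genes left out are mostly of the UGT1A and glutathione S-transferase families. Separated pairs fell from 15 to 8 with the 99th percentile, and stayed at 15 with a pseudocount of 0.1 or with the 100 nearest genes. No gene differed by more than 1 on the log2 scale under the other pseudocounts, minimums, scaling or trend removal, and 6 did by more than 0.5, an alternative added after the data were seen. The median difference ranged from 0.00 with no minimum to 0.15 with a minimum of 5 FPKM. With 2 libraries, differences between genes of like level within a family are the least certain, and levels that rest on a few fragments carry a large counting error.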
